A study of Mus musculus with 8 samples.

Results

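The genes described here are 80 of the 875 genes in the deposited expression table of mouse embryonic fibroblasts, and they are those with lower expression in all 3 altered cell lines than in control cells. They were selected on the values of all 8 libraries: log2(group mean + 1) had to lie at least 1 below that of control cells in each of the EZHIP, K27M and EED-null lines. Genes of several large families, recognised by the start of their symbols, were then set aside, which removed 19 of 99 genes. The 80 genes are 9.14% of the table and 21.1% of the 380 genes with a lower mean in EZHIP than in control cells. After the libraries were rescaled to a common median ratio, 133 genes met the same rule, all 80 among them. Because the rule used each line's difference from control, those differences, and any calls made on them, are given as a description. Only the differences between the lines, which the rule did not compare directly, are read as tests. They are not free of the selection, since the rule held each line at least 1 below control.

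RNA was sequenced after ribosomal RNA depletion from 4 groups of 2 libraries each, and RNA from another cell type was spiked into every sample. Control cells were the parental fibroblasts with a floxed EED gene, a background shared by all groups. Each line's difference from control uses the same 2 control libraries, so these differences are not independent, and anything peculiar to those libraries enters each of them. EZHIP and K27M cells were stable lines made with puromycin-selected lentivirus, the former expressing human EZHIP and the latter histone H3.3 with the K27M mutation, each from the vector pCDH-EF1a-MCS-Puro. EED-null cells were a single clone obtained after transient delivery of Cre by lentivirus, so each group is 1 line or clone and its 2 libraries do not measure the variation between lines. Whether the replicates were grown as separate cultures is not stated. No group with an empty vector is named, so handling with lentivirus cannot be told apart from the alteration itself in the differences from control. The table was restricted by the authors to genes that differed at least 2-fold between EZHIP and control cells, and *Eed* is not listed, so its loss could not be looked up.

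As background, Polycomb repressive complex 2 (PRC2) methylates histone H3 at lysine 27, and its trimethyl mark is found at silenced developmental genes. EZHIP and the K27M form of histone H3 both inhibit PRC2, while EED is a core subunit without which the complex is not active. Embryonic fibroblasts are connective tissue cells that make collagens, proteoglycans and growth factors, so many genes they express serve the extracellular matrix and signalling between cells.

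The deposited values are estimated reads per gene divided by a size factor for the library, and they are not scaled by gene length. Steps between the values show what 1 read is worth, which gives 306290 and 424561 estimated reads on the listed genes in the control libraries. There were 264279 and 269660 under EZHIP, 350472 and 400267 under K27M, and 209390 and 294073 after loss of EED. The 80 genes alone drew 79821 and 110889 reads in control cells, 22521 and 23073 under EZHIP, 19307 and 21278 under K27M, and 15678 and 21527 after loss of EED. Full library depth is not known from a table of selected genes. Replicates differed by more than counting noise, with a chi-square per listed gene of 1.51 for control, 2.11 for EZHIP, 3.51 for K27M and 2.56 for EED-null libraries. In 70 of the 80 genes every library held more than 3 reads. Reads that map to several places left fractional estimates in at least 1 library for 48 genes, and in all 8 libraries for *A730069N07Rik*, *C1qtnf5*, *Igsf10*, *Nfia*, *Nid1* and *Pcdhgb5*, whose values are therefore less certain.

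Together the 80 genes made up 26.1% of the summed listed values in both control libraries. Their share was 8.52% and 8.56% under EZHIP, 5.51% and 5.32% under K27M, and 7.49% and 7.32% after loss of EED. In each of the 80 genes, all 6 libraries of the lines lay below both control libraries. The rule made this separation likely and its share over all listed genes was not computed, so nothing is read from it. limma called 79 of them lower in EZHIP cells, where 43.1% of all listed genes were called lower, and the exception was *Aoc3*. In K27M cells it called 79 lower, all but *Trpv2*, beside 20% of the listed genes. In EED-null cells it called all 80 lower, beside 25.1% of the listed genes. Nothing is read from these 3 counts, since the rule fixed them. In bulk RNA, a smaller number of cells of some type and less RNA per cell cannot be told apart, which applies to every difference given here.

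The median difference from control on the log2(group mean + 1) scale was -1.75 under EZHIP, -1.99 under K27M and -2.04 after loss of EED. Over all listed genes the medians were 1.16, 0.59 and 0.40, so the median of the 80 genes minus that of the table was -2.91, -2.57 and -2.44. Taken library by library, the median of the 80 genes was -1.78 and -1.73 under EZHIP, -1.98 and -1.95 under K27M, and -2.03 and -2.02 after loss of EED. Rescaling the libraries to a common median ratio over the listed genes moved the median of all listed genes by -0.32, -0.44 and -0.39 in the 3 lines. Relative to that moved median, the 80 genes lay at -2.91, -2.59 and -2.44, and all other values are as deposited unless said otherwise. Differences of single genes ran from -5.86 to -1.02 in EZHIP, from -5.90 to -1.07 in K27M and from -8.66 to -1.01 in EED-null cells. A difference of at least 4-fold on this scale was found for 29 genes under EZHIP, 40 under K27M and 40 after loss of EED, and 10 genes reached it in all 3 lines. These 10 were *Abi3bp*, *Clec11a*, *Fam110b*, *Hey1*, *Heyl*, *Ppfia2*, *Ptgir*, *Rspo2*, *Trhde* and *Zcchc5*. A difference of at least 8-fold was found for 10, 16 and 24 genes in the same order of lines. The lowest of the 3 line means was that of EZHIP cells for 17 genes, of K27M cells for 33 and of EED-null cells for 30. These counts were not made over the other listed genes, so nothing particular to the set is read from them.

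**Figure D1:**
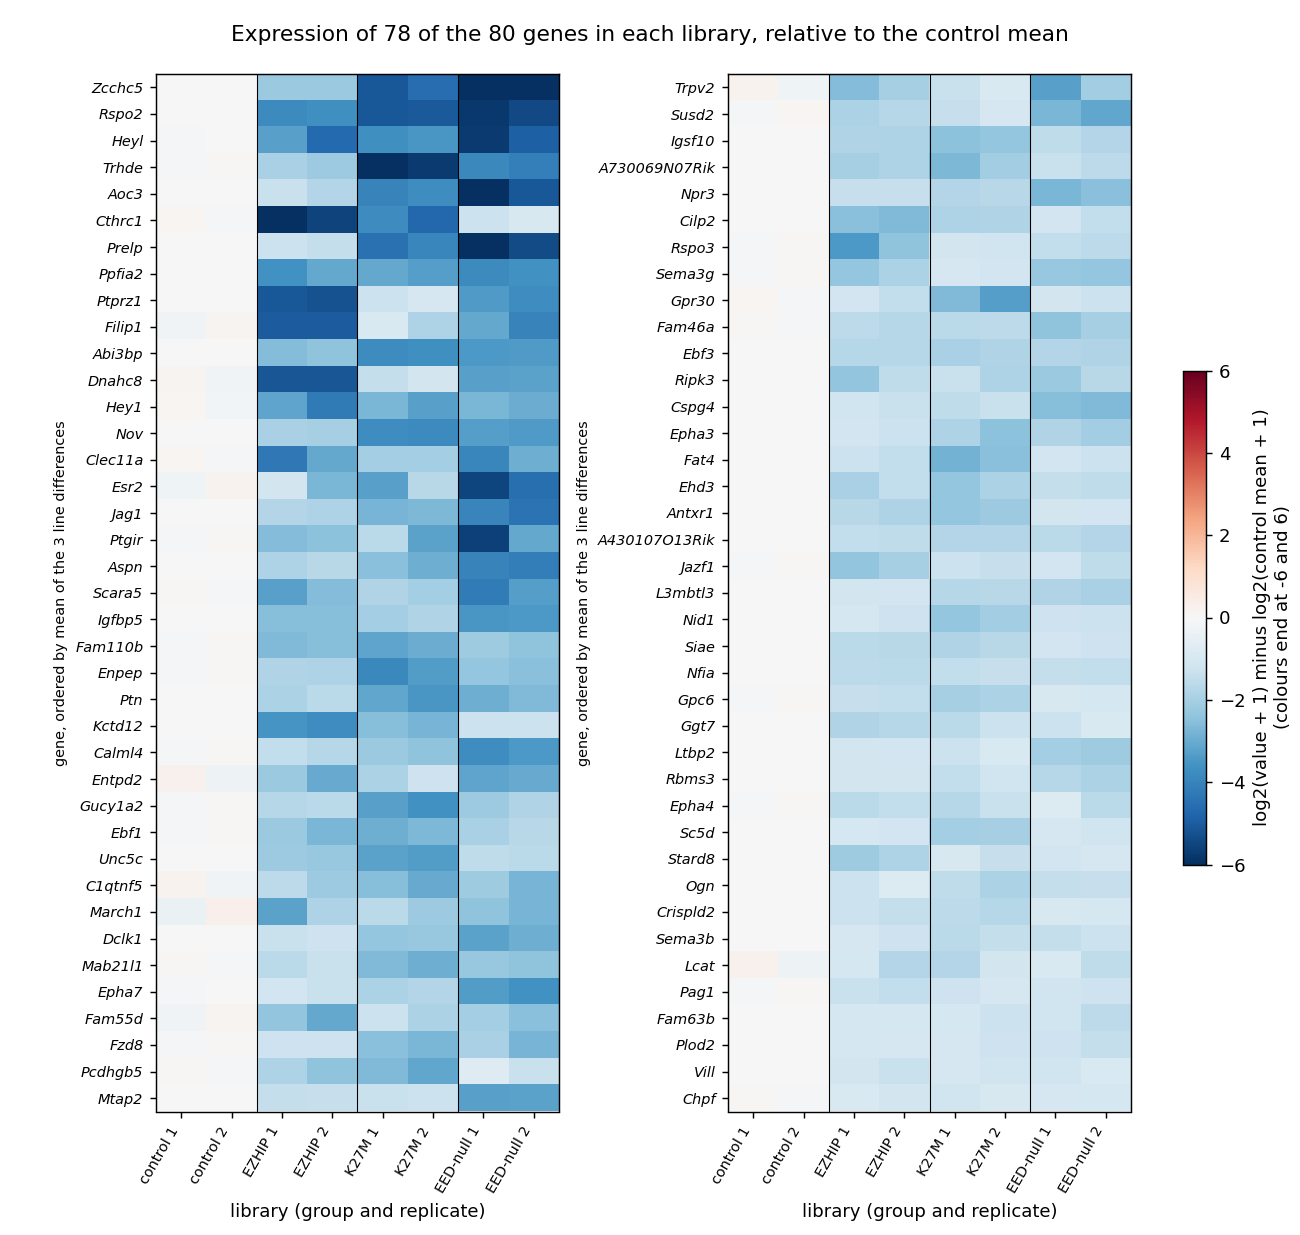
Heat map of 78 of the 80 genes (rows, ordered by their mean difference over the 3 lines) in the 8 libraries (columns), coloured by log2(value + 1) minus log2(control mean + 1), with colours ending at -6 and 6. The 6 libraries of the lines are below both control libraries in each of the 78 rows, which the rule made likely. The depth of the colour differs between lines for genes such as Cthrc1, Ptprz1 and Zcchc5.

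In control cells the 80 genes had a median value of 395, against 96.1 over all listed genes, with a range from 19.4 to 8847. Their annotated transcripts were of similar size to the table's, with a median of 4239 bp against 3720.5 bp. Divided by transcript length, the median control level was 100.4 per kb, against 27.8 per kb over the listed genes and 65.8 per kb over those lower in EZHIP cells. The highest control levels per kb were those of *Nov* (3084), *Ptn* (2162) and *Ogn* (1186), so the set includes secreted proteins that control cells express strongly. A gene with a control value near 0 could not meet the rule.

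Secreted matrix proteoglycans were among these genes. *Aspn* (asporin), *Ogn* (osteoglycin) and *Prelp* belong to the small leucine-rich proteoglycans, which bind collagen and are laid down in connective tissue. This family was gathered after its values were seen. The table holds 5 of its genes, and limma called 5 lower in EZHIP, 3 lower and 1 higher in K27M, and 5 lower in EED-null cells. Over all listed genes 43.1%, 20% and 25.1% were called lower and 56%, 41.4% and 39.9% higher in the same order of lines, and the 2-fold restriction of the table bears on every count for EZHIP. The other listed members are *Dcn* (decorin) and *Fmod* (fibromodulin), which did not meet the rule. Since 3 of the 5 genes were chosen for lower values in every line, the rule largely fixed the family's lower calls. In mm9, *Aspn* (chr13:49639812-49662926) and *Ogn* (chr13:49703440-49719869) lie on the plus strand of chromosome 13, 40513 bp apart. No other listed gene lies between them, and genes outside the deposited table were not looked for. *Prelp* lies on the minus strand of chromosome 1 (chr1:135806881-135817991).

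Promoters of these 3 genes are shown because the genes encode related proteins and were all lower in the 3 lines. Each sequence covers the 250 bases before the RefSeq start of the gene in the GRCm38.p6 build, read 5′ to 3′ along the gene's strand. Capitals mark every TATAAA or CCAAT found on either strand. The windows are chr13:49544193-49544442 on the plus strand for *Aspn*, chr13:49607765-49608014 on the plus strand for *Ogn* and chr1:133921402-133921651 on the minus strand for *Prelp*.
Aspn: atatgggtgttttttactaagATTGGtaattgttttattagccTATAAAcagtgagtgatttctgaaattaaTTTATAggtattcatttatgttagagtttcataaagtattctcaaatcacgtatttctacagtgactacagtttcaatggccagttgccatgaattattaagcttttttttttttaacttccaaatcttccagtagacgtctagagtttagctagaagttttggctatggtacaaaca
Ogn: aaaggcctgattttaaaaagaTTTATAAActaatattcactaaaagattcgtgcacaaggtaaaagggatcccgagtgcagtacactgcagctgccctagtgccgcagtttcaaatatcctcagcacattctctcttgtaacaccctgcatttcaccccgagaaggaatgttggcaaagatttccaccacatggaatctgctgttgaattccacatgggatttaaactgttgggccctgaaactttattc
Prelp: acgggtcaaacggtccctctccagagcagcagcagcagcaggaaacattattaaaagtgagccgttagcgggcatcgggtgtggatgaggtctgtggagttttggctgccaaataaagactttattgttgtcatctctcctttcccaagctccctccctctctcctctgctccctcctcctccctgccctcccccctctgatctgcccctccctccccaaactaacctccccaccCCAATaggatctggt
The *Aspn* window has 2 matches to TATAAA and 1 to CCAAT, while the *Ogn* window has 2 overlapping matches to TATAAA on opposite strands. The *Prelp* window has 1 match to CCAAT next to a run rich in C and T. Among all 27025 RefSeq windows of this length, 3504 (12.97%) hold TATAAA and 9314 (34.5%) hold CCAAT on either strand. A match is a description of the letters only.

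The values of *Aspn* were 1631 and 1701 in control cells, 468 and 524 under EZHIP, 290.3 and 216 under K27M and 101 and 92.1 after loss of EED. They stepped down from control through EZHIP and K27M to EED-null cells, and no 2 groups overlapped. Its mean was 3.36-fold, 6.58-fold and 17.2-fold lower than control in the 3 lines. Between lines, *Aspn* was lower in EED-null than in EZHIP cells (log2 difference -2.35, 95% interval -2.75 to -1.94, adjusted p = 0.000112) and higher in K27M than in EED-null cells (1.37, adjusted p = 0.000461). Its difference between K27M and EZHIP cells, -0.98, did not reach 2-fold with all libraries, but did without EZHIP replicate 1 (-1.06) or K27M replicate 1 (-1.19), or after rescaling (-1.12).

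*Prelp*, a proteoglycan that anchors basement membranes to the tissue around them, showed the same order with wider gaps between the lines. Its values were 857 and 836 in control cells, 348 and 312 under EZHIP, 37.1 and 55.9 under K27M and 12.5 and 19.4 after loss of EED. EZHIP cells kept 38.99% of the control mean, K27M cells 5.49% and EED-null cells 1.88%, and no groups overlapped. *Prelp* was lower in EED-null than in EZHIP cells (log2 difference -4.32, 95% interval -4.96 to -3.68, adjusted p = 6.19e-05), and lower in K27M than in EZHIP cells (-2.83, adjusted p = 0.000129). It was higher in K27M than in EED-null cells (1.49, adjusted p = 0.00242).

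For *Ogn* the values were 2990.3 and 3032 in the control libraries, against 1218 and 1697 with EZHIP, 1057 and 804 with K27M and 1120.1 and 1159.9 without EED. All 6 line libraries lay well below control, highest in EZHIP and lowest in K27M cells without overlap, and the 2 EZHIP libraries differed more from each other than those of the other lines did. No pair of lines was called different for *Ogn*, and the largest difference was -0.64 (95% interval -1.13 to -0.15) for K27M minus EZHIP. *Dcn*, shown for contrast, had 364 and 380.1 in the control libraries, against 129 and 179 with EZHIP, 3192 and 3255 with K27M and 69.3 and 73.6 without EED. It was low in EZHIP and EED-null cells and high in K27M cells, which kept it out of the set.

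Among genes of the Wnt pathway, 19 were listed and 3 met the rule: *Rspo2*, *Rspo3* and *Fzd8*. R-spondins are secreted proteins that bind LGR receptors and strengthen Wnt signalling, and *Fzd8* encodes a Frizzled receptor for Wnt ligands. limma called 13 of the 19 genes higher and 6 lower in EZHIP, 8 higher and 3 lower in K27M, and 12 higher against 4 lower in EED-null cells, beside 56%, 41.4% and 39.9% higher and 43.1%, 20% and 25.1% lower over all listed genes. The list's median differences from control were 2.21, 0.77 and 1.85, beside 1.16, 0.58 and 0.40 over all listed genes in the same fit.

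*Rspo2* (mm9 chr15:42852357-43002364, minus strand) had values of 1629 and 1718 in control cells, 116 and 128 under EZHIP, 48.2 and 49.6 under K27M and 29.1 and 37.8 after loss of EED. Control cells expressed it strongly, each line was far below that level, and the EED-null libraries were the lowest. The means were 13.7-fold lower in EZHIP, 34.2-fold lower in K27M and 50.01-fold lower in EED-null cells. EZHIP cells retained more *Rspo2* than either other line, and the 3 groups did not overlap. limma called EED-null lower than EZHIP cells (log2 difference -1.84, 95% interval -2.20 to -1.49, adjusted p = 0.000154) and K27M lower than EZHIP cells (-1.30, adjusted p = 0.000295). The difference of K27M minus EED-null, 0.55 (95% interval 0.19 to 0.90), was under 2-fold.

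The place of EZHIP cells among the lines was different for *Rspo3*, whose values were 105 and 119.6 in control cells, 9.47 and 20.5 under EZHIP, 51.9 and 48.1 under K27M and 40.2 and 36.8 after loss of EED. Here EZHIP cells were lowest, and their libraries overlapped neither those of K27M nor those of EED-null cells. *Rspo3* was higher in K27M than in EZHIP cells (log2 difference 1.76, 95% interval 0.97 to 2.55, adjusted p = 0.0027). It was also called higher in EED-null than in EZHIP cells (1.40, adjusted p = 0.00924), but without EZHIP replicate 1 the difference was 0.88 and the call was lost. *Rspo1*, a listed relative outside the set, stood at 1.03 and 0 in the control libraries, against 21.3 and 34.2 with EZHIP, 156 and 192 with K27M and 44.4 and 56.2 without EED. It was higher in each line, the reverse of *Rspo2* and *Rspo3*.

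*Fzd8* had values of 263 and 289 in control cells, 116 and 115 under EZHIP, 48.2 and 41.1 under K27M and 72.1 and 39.7 after loss of EED. All line libraries were under the control libraries, and the K27M and EED-null libraries, which overlapped each other, were below those of EZHIP cells. It was called lower in K27M than in EZHIP cells (log2 difference -1.36, 95% interval -2.02 to -0.69, adjusted p = 0.00402). The call of EED-null below EZHIP cells (-1.10, adjusted p = 0.012) was lost without EED-null replicate 2, where the difference was -0.67.

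Of 5 listed Notch pathway genes, 3 were in the set: the ligand *Jag1* and the transcriptional repressors *Hey1* and *Heyl*, whose genes are switched on by Notch receptors. The other listed genes are *Hey2* and *Jag2*. limma called 2 of the 5 genes higher and 3 lower in EZHIP, 1 higher and 3 lower in K27M, and 1 higher against 4 lower in EED-null cells, beside 56%, 41.4% and 39.9% higher and 43.1%, 20% and 25.1% lower over all listed genes. The median differences from control were -1.80, -2.74 and -2.86, beside 1.16, 0.58 and 0.40 over all listed genes. Since 3 of the 5 genes were chosen for lower values in every line, the rule largely fixed these medians and lower calls. Nothing about the pathway is read from them.

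*Jag1* (mm9 chr2:136907192-136942380, minus strand) had values of 1498 and 1428 in control cells, 429.6 and 407 under EZHIP, 211 and 225 under K27M and 94.3 and 66.9 after loss of EED. Its level stepped down from control to EZHIP, to K27M and to EED-null cells, with no overlap between groups. Mean levels were 28.6%, 14.9% and 5.51% of control in the 3 lines. EED-null cells were lower than EZHIP cells (log2 difference -2.38, 95% interval -2.80 to -1.96, adjusted p = 0.000115), and K27M cells were higher than EED-null cells (1.44, adjusted p = 0.000438). The difference of K27M minus EZHIP was -0.94, short of 2-fold as deposited, and -1.08 after rescaling.

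The repressor gene *Hey1* showed no such order, with values of 301 and 249 in control cells, 29.6 and 13.7 under EZHIP, 39.9 and 27.97 under K27M and 40.2 and 33.9 after loss of EED. All line libraries were low, and K27M libraries overlapped those of both other lines. No pair of lines was called different, although without EZHIP replicate 1, the higher of the EZHIP libraries, EED-null and K27M cells were called higher than EZHIP cells (1.37 and 1.23). *Heyl*, its close relative, had values of 193 and 206 in control cells, 20.1 and 6.84 under EZHIP, 14.8 and 16.6 under K27M and 2.77 and 5.81 after loss of EED. Its EED-null libraries held only a few reads each, and the EZHIP libraries spanned those of K27M cells. *Heyl* was called higher in K27M than in EED-null cells (1.72, adjusted p = 0.019), and the call was lost without EED-null replicate 1 (1.29), K27M replicate 1 (1.80) or K27M replicate 2 (1.64). *Heyl* in EED-null cells was called lower than in EZHIP cells without EED-null replicate 2 (-1.77) or EZHIP replicate 2 (-2.06), and in K27M cells higher than in EZHIP cells without EZHIP replicate 1 (1.09). *Jag2*, the listed ligand outside the set, stood at 7.19 and 8.86 in the control libraries, against 36.7 and 18.2 with EZHIP, 227 and 272 with K27M and 77.5 and 67.8 without EED, higher in each line than in control.

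Genes of 1 growth factor and its binding partners were also in the set. *Ptn* encodes pleiotrophin, a heparin-binding growth factor, *Ptprz1* a receptor tyrosine phosphatase that pleiotrophin binds, and *Cspg4* the NG2 proteoglycan, a further binding partner found on pericytes and glial progenitors. These 3 genes, brought together after their values were seen, are all the listed genes of pleiotrophin and its receptors.

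The values of *Ptn* were 5518 and 5419.6 in control cells, 1475 and 1794 under EZHIP, 621 and 484 under K27M and 714 and 865 after loss of EED. The gene was among the most strongly expressed in control cells, and the EZHIP libraries stood above those of K27M and EED-null cells. K27M cells were lower than EZHIP cells (log2 difference -1.57, 95% interval -2.004 to -1.13, adjusted p = 0.000315). EED-null cells were called lower than EZHIP cells (-1.05, adjusted p = 0.00273), but not without EED-null replicate 1 or without EZHIP replicate 2 (-0.91 in each).

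*Ptprz1* (mm9 chr6:22825502-23002916, plus strand) differed more between lines than most of the set, with values of 1779 and 1805 in control cells, 52.1 and 46.7 under EZHIP, 734 and 893 under K27M and 168 and 135 after loss of EED. EZHIP cells were lowest, EED-null cells lay between, and K27M cells kept 45.4% of the control mean, with no overlap between groups. The K27M difference from EZHIP cells (log2 difference 4.01, 95% interval 3.62 to 4.40, adjusted p = 5.01e-06) was the largest rise among the 80 genes in that comparison on the log2(value + 1) scale. EED-null cells were also higher than EZHIP cells (1.59, adjusted p = 0.000318), and K27M higher than EED-null cells (2.42, adjusted p = 2.96e-05). *Cspg4* had values of 1237 and 1178 in control cells, 522 and 474 under EZHIP, 418 and 484 under K27M and 208 and 191 after loss of EED. There the EZHIP and K27M libraries overlapped and the EED-null libraries were lowest, below EZHIP cells by the test (-1.31, adjusted p = 0.000241).

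*Igfbp5*, which binds insulin-like growth factors outside the cell, was the 1 gene in the set from a list, fixed with the design, of growth factors and receptor tyrosine kinases. That list leaves out *Ptn*, *Clec11a* and the Eph receptors, and 18 of its genes are in the table. Of those 18, limma called 14 higher and 3 lower in EZHIP, 10 higher and 2 lower in K27M, and 10 higher against 3 lower in EED-null cells, beside 56%, 41.4% and 39.9% higher and 43.1%, 20% and 25.1% lower over all listed genes. *Igfbp5* values were 3779 and 3601 in control cells, 620.2 and 629 under EZHIP, 895 and 1040.3 under K27M and 324 and 340.1 after loss of EED. Its EED-null libraries were lowest and its K27M libraries highest among the lines, and the groups did not overlap. K27M cells exceeded EED-null cells (log2 difference 1.54, 95% interval 1.26 to 1.81, adjusted p = 4.77e-05), while the differences of both from EZHIP cells were under 2-fold (0.63 and -0.91).

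*Nov*, now named Ccn3, encodes a matrix-associated signalling protein and had the highest control level per kb of the set (mm9 chr15:54577257-54585594, plus strand). Values were 8809 and 8885 in control cells, 2296 and 2239 under EZHIP, 669.6 and 629 under K27M and 900.0 and 830.5 after loss of EED. Each line was far below control, and EZHIP cells held over 2 times the level of either other line without overlap. Both EED-null (-1.39, adjusted p = 0.000114) and K27M cells (-1.80, adjusted p = 1.67e-05) were lower than EZHIP cells. *Ltbp2*, a protein of elastic microfibrils related to the latent TGF-beta binding proteins, was the 1 gene in the set from the TGF-beta and BMP list, of which the table holds 12. Of those 12, limma called 8 higher and 4 lower in EZHIP, 4 higher and 2 lower in K27M, and 6 higher against 2 lower in EED-null cells, beside 56%, 41.4% and 39.9% higher and 43.1%, 20% and 25.1% lower over all listed genes. *Ltbp2* values were 383 and 361 in control cells, 174 and 169 under EZHIP, 153 and 194 under K27M and 90.1 and 83.3 after loss of EED. The EED-null libraries were lowest, but the differences from EZHIP (-0.98) and of K27M from EED-null cells (0.98) stayed just under 2-fold. They passed it without EED-null replicate 1 (-1.03 and 1.04), and the second also without K27M replicate 1 (1.15).

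**Figure D2:**
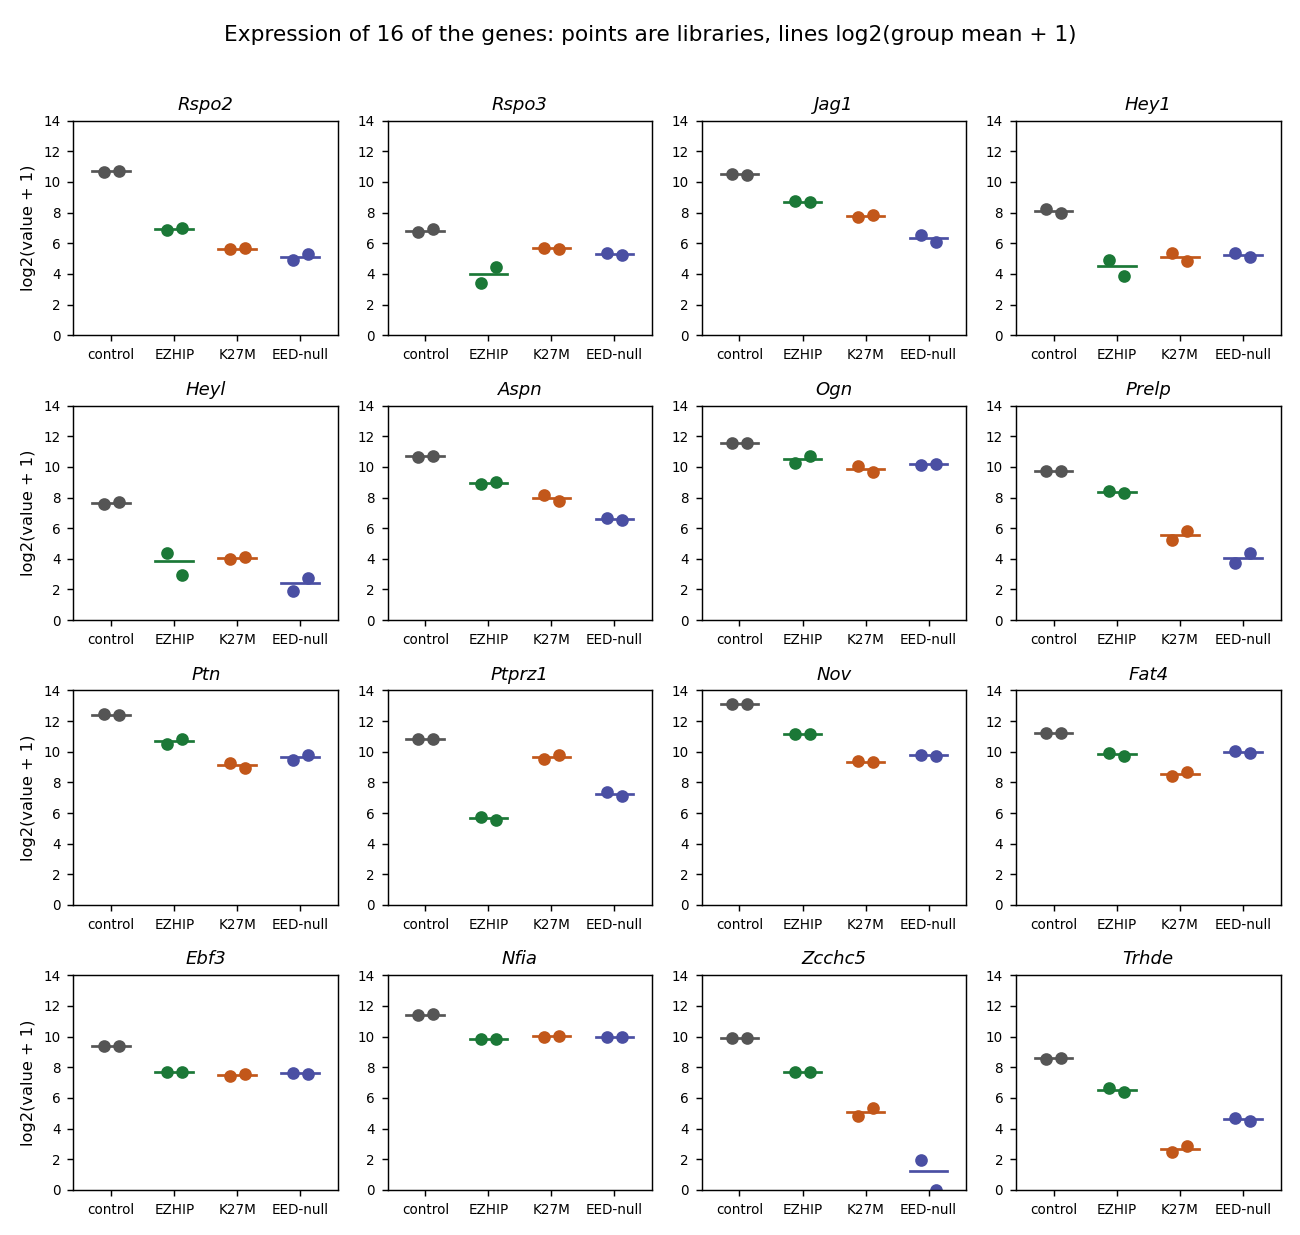
Expression of 16 of the 80 genes, 1 panel each, on a log2(value + 1) axis from 0 to 14, with points for the 2 libraries of each group and lines for log2(group mean + 1). Control points are highest in every panel, the EZHIP points are lowest for Ptprz1 and Rspo3, and the EED-null points are lowest for Jag1, Aspn, Prelp and Zcchc5.

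Cell adhesion and axon guidance contributed 7 genes of 35 listed: *Unc5c*, *Epha7*, *Epha3*, *Epha4*, *Sema3b*, *Sema3g* and *Pcdhgb5*. limma called 14 of the 35 higher and 21 lower in EZHIP, 9 higher and 21 lower in K27M, and 14 higher against 8 lower in EED-null cells, beside 56%, 41.4% and 39.9% higher and 43.1%, 20% and 25.1% lower over all listed genes. Median differences from control were -1.15, -1.53 and -0.41, beside 1.16, 0.58 and 0.40 over all listed genes. Many of these list genes are gamma protocadherins of a single gene cluster, which share exons and between which reads can be split.

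*Unc5c* encodes a receptor for the guidance protein netrin, and its values were 1160.0 and 1212 in control cells, 264 and 247 under EZHIP, 125 and 116 under K27M and 414 and 388 after loss of EED. K27M cells were lowest and EED-null cells highest among the lines, with no overlap. K27M was lower than EED-null (log2 difference -1.72, 95% interval -1.98 to -1.47, adjusted p = 2.34e-05) and lower than EZHIP cells (-1.08, adjusted p = 0.000152). EED-null exceeded EZHIP cells by 0.65, which is under 2-fold.

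The ephrin-A receptor gene *Epha7* had values of 609 and 649 in control cells, 283 and 249.6 under EZHIP, 169 and 182 under K27M and 61.00 and 50.4 after loss of EED. EED-null libraries were lowest by a wide margin, with K27M between them and EZHIP. The difference of EED-null from EZHIP (log2 difference -2.24, 95% interval -2.57 to -1.91, adjusted p = 6.22e-05) and that of K27M from EED-null cells (1.64, adjusted p = 8.52e-05) were both called. Its relative *Epha3* had 579 and 548 in the control libraries, against 254 and 230.3 with EZHIP, 155 and 101 with K27M and 161 and 134 without EED. K27M and EED-null libraries overlapped below those of EZHIP cells, and no pair was called, though K27M minus EZHIP passed 2-fold without EZHIP replicate 2 (-1.02) or K27M replicate 1 (-1.25). For *Epha4*, another of these receptors, the lines overlapped and no pair was called different.

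*Sema3b*, a secreted semaphorin, had values of 413 and 407 in control cells, 202 and 171 under EZHIP, 134 and 153 under K27M and 154 and 168 after loss of EED. The lines lay close together, between 134 and 202, and no pair was called different. *Sema3g* was weakly expressed and lay at 55.4 and 59.8 in the control libraries, against 10.7 and 14.8 with EZHIP, 27.8 and 25.6 with K27M and 11.1 and 10.7 without EED. K27M libraries were highest among the lines, above EZHIP (1.03, adjusted p = 0.00141) and EED-null cells (1.22, adjusted p = 0.000705). The first of these calls was lost without EZHIP replicate 1 (0.81) or K27M replicate 1 (0.97) and after rescaling (0.89), and with a pseudocount of 5 both were lost (0.85 and 0.998). *Pcdhgb5* differed from control by -2.10 under EZHIP, -2.86 under K27M and -1.02 after loss of EED, but its reads were fractional in all 8 libraries. It was called higher in EED-null than in EZHIP cells (1.08), though not without EED-null replicate 1 or EZHIP replicate 2 (0.78 in each), and lower in K27M than in EED-null cells (-1.83). Without EZHIP replicate 2 it was also called lower in K27M than in EZHIP cells (-1.05).

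Other genes of the cell surface and matrix varied in which line was lowest. *Fat4* encodes a giant atypical cadherin of the planar cell polarity system, and its values were 2371 and 2352 in control cells, 975 and 857 under EZHIP, 335 and 412 under K27M and 1063 and 966 after loss of EED. EZHIP and EED-null libraries overlapped at a similar level, and K27M libraries were lower. K27M was lower than EZHIP (log2 difference -1.30, 95% interval -1.64 to -0.95, adjusted p = 0.000251) and than EED-null cells (-1.45, adjusted p = 0.000176), while EED-null minus EZHIP was 0.15 (95% interval -0.20 to 0.49).

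*Nid1* encodes nidogen, a link protein of basement membranes, and stood at 5700.4 and 5677 in the control libraries, against 2713 and 2425 with EZHIP, 1130.2 and 1329 with K27M and 2428 and 2298 without EED. Again only the K27M libraries lay apart from the other lines. The call of K27M below EZHIP cells (-1.06, adjusted p = 0.000337) was lost without EZHIP replicate 1 (-0.98) or K27M replicate 1 (-0.95). Without K27M replicate 2 the difference of K27M from EED-null cells (-1.06) was called as well. *Abi3bp*, an extracellular matrix protein, had 626 and 623 in the control libraries, against 103 and 115 with EZHIP, 45.4 and 47.2 with K27M and 56.8 and 58.1 without EED. It was at least 4-fold lower in each line, with EZHIP highest among them and K27M below EZHIP cells by the test (-1.22, adjusted p = 8.4e-05).

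*Cthrc1*, a secreted protein of remodelling connective tissue, was the gene with the widest span in the other direction. Its values were 280.2 and 235 in control cells, 2.37 and 4.56 under EZHIP, 17.6 and 8.74 under K27M and 104 and 132 after loss of EED. EZHIP libraries held only a few reads, K27M libraries were a little higher, and EED-null cells kept 45.8% of the control mean. The difference of EED-null minus EZHIP (log2 difference 4.77, 95% interval 3.85 to 5.69, adjusted p = 0.000153) was likewise the largest rise in its comparison. K27M lay below EED-null (-3.13, adjusted p = 0.000442) and higher than EZHIP cells (1.64, adjusted p = 0.00715).

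Genes of 2 sterol enzymes were also in the set, and both were named after their values were seen. *Sc5d* encodes an enzyme late in cholesterol synthesis, and *Lcat* the plasma enzyme that esterifies cholesterol. *Sc5d* had 1926 and 1990.0 in the control libraries, against 939.8 and 895 with EZHIP, 475 and 493 with K27M and 977 and 858 without EED. Its K27M libraries were lowest, but the differences of K27M from EZHIP and from EED-null cells, both -0.92, were under 2-fold, and the latter was called without EED-null replicate 2 (-1.01), the former after rescaling (-1.06). *Lcat*, at 48.2 and 32.5 in the control libraries, against 18.9 and 11.4 with EZHIP, 11.1 and 18.4 with K27M and 20.8 and 13.6 without EED, was weakly expressed, and its lines overlapped.

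Some receptors and enzymes are described together here; they were grouped after their values were seen and are not a list that was counted. *Ptgir* encodes the prostacyclin receptor and had low values of 46.2 and 50.2 in control cells, 7.101 and 7.98 under EZHIP, 14.8 and 4.37 under K27M and 0 and 4.85 after loss of EED. K27M libraries overlapped those of both other lines and no pair was called, although without EED-null replicate 2 EED-null was called lower than EZHIP (-3.09) and K27M higher than EED-null cells (3.21). *Npr3*, the clearance receptor for natriuretic peptides, had 1375 and 1384 in the control libraries, against 526 and 527 with EZHIP, 403 and 434 with K27M and 208 and 239 without EED. EED-null libraries were lowest and were called lower than EZHIP cells (-1.23, adjusted p = 0.000221). Without EED-null replicate 2, K27M was also called higher than EED-null cells (1.005).

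*Gucy1a2*, a subunit of the soluble guanylate cyclase that nitric oxide activates, had values of 429 and 481 in control cells, 137 and 146 under EZHIP, 47.3 and 35.8 under K27M and 98.4 and 129 after loss of EED. K27M libraries were lowest, without overlap, below EZHIP (log2 difference -1.76, 95% interval -2.22 to -1.29, adjusted p = 0.000248) and EED-null cells (-1.43, adjusted p = 0.000696). *Enpep*, an aminopeptidase that cleaves angiotensin, stood at 438 and 469 in the control libraries, against 129 and 124 with EZHIP, 29.7 and 42.8 with K27M and 88.7 and 79.5 without EED. K27M was again lowest, and its call against EED-null cells (-1.21, adjusted p = 0.00123) was lost without K27M replicate 1 (-0.95), while that against EZHIP cells (-1.80, adjusted p = 0.000188) was not lost when any library was left out. *Gpr30*, now named Gper1, a membrane receptor that responds to estrogen, had 141 and 117 in the control libraries, against 57.9 and 45.6 with EZHIP, 19.5 and 12.2 with K27M and 59.6 and 52.3 without EED. K27M libraries were lowest, below EZHIP (-1.67, adjusted p = 0.000968) and EED-null cells (-1.79, adjusted p = 0.000781).

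*Aoc3*, a cell surface amine oxidase known as vascular adhesion protein, had values of 195 and 198 in control cells, 76.9 and 58.1 under EZHIP, 11.1 and 13.99 under K27M and 0 and 4.85 after loss of EED. Its level was lower step by step in EZHIP, K27M and EED-null cells, and the groups did not overlap. EED-null was lower than EZHIP cells (log2 difference -4.81, 95% interval -6.67 to -2.96, adjusted p = 0.00195), and this call was kept whichever library was left out. K27M was called lower than EZHIP (-2.33, adjusted p = 0.0285) and higher than EED-null cells (2.48, adjusted p = 0.024). The former call was lost without EZHIP replicate 1 (-2.13), EZHIP replicate 2 (-2.53), K27M replicate 1 (-2.18) or K27M replicate 2 (-2.48), and the latter without K27M replicate 1 (2.63) or K27M replicate 2 (2.33). *Esr2*, the gene of estrogen receptor beta, was weakly expressed at 36.96 and 50.9 in the control libraries, against 20.1 and 5.700 with EZHIP, 3.71 and 13.1 with K27M and 0 and 0.969 without EED. With 1 read in the EED-null libraries together, control exceeded EED-null cells by a ratio of 79.0, with an exact 95% counting interval from 13.9 to 3152. Such intervals, and the floor of 3 reads per library used for genes with none, cover counting error only. *Esr2* was called lower in EED-null than in EZHIP (-3.08) and K27M cells (2.54 for K27M minus EED-null), calls lost without EED-null replicate 1 (-2.59 and 2.05), and the second also without K27M replicate 2 (1.75).

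From the list of regulators that bind DNA, fixed with the design, 38 genes are in the table and 2 met the rule, *Ebf1* and *Ebf3*. The list leaves out other members of this kind, such as *Hey1*, *Heyl* and *Nfia*, and *Hoxc8* passed the threshold but was set aside by its symbol. *Ebf1* and *Ebf3* encode early B-cell factor proteins, which also act in adipose, bone and neural development. limma called 32 of the 38 higher and 6 lower in EZHIP, 21 higher and 3 lower in K27M, and 29 higher against 2 lower in EED-null cells, beside 56%, 41.4% and 39.9% higher and 43.1%, 20% and 25.1% lower over all listed genes. Median differences were 2.65, 1.28 and 2.30, above the medians of all listed genes in each line.

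*Ebf3* values were 678 and 668 in control cells, 206 and 204 under EZHIP, 173 and 191 under K27M and 195 and 189.9 after loss of EED. All 3 lines lay in a narrow band, with EZHIP libraries just above those of K27M and EED-null cells, which overlapped. *Ebf1* had lower values of 257 and 281 in control cells, 56.8 and 38.8 under EZHIP, 34.3 and 41.1 under K27M and 69.3 and 85.3 after loss of EED. EED-null libraries were highest among the lines, and K27M was called lower than EED-null cells (-1.01, adjusted p = 0.00556), a call lost without EED-null replicate 2 (-0.87) or K27M replicate 1 (-0.89).

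*Nfia* and *Jazf1* also encode nuclear proteins but were on no list. *Nfia*, a nuclear factor I transcription factor, had values of 2709.8 and 2844 in control cells, 924 and 897 under EZHIP, 988 and 1074 under K27M and 1020.2 and 996 after loss of EED. The lines kept about the same level, and the EZHIP libraries lay just under the other 4. *Jazf1*, a zinc finger gene, had 245 and 277 in the control libraries, against 49.7 and 63.8 with EZHIP, 105 and 98.8 with K27M and 118 and 91.1 without EED. EZHIP libraries were lowest. No pair was called with all libraries, but EED-null was called higher than EZHIP cells without EED-null replicate 2 (1.05) or EZHIP replicate 2 (1.04), and K27M higher than EZHIP cells without EZHIP replicate 2 (1.02). *L3mbtl3*, which encodes a chromatin protein of the MBT family, had 525 and 547 in the control libraries, against 249 and 241 with EZHIP, 160.5 and 167 with K27M and 151 and 141 without EED, and it differed by less than 2-fold between any pair of lines. The only listed gene of a Polycomb complex, *Phf19*, was not in the set, and limma called it lower in EZHIP cells alone.

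Genes best known from neurons, again grouped after their values were seen, were present as well. *Mtap2*, now named Map2, encodes a microtubule-associated protein of dendrites and was the only listed gene among the neural markers. Its values were 1736 and 1797 in control cells, 659 and 676 under EZHIP, 704 and 728 under K27M and 183 and 187 after loss of EED. EZHIP and K27M libraries lay close together, and EED-null libraries were well below both. EED-null was lower than EZHIP (log2 difference -1.85, 95% interval -2.07 to -1.62, adjusted p = 4.45e-05) and K27M higher than EED-null cells (1.95, adjusted p = 9.05e-06), whereas K27M minus EZHIP was 0.10 (95% interval -0.12 to 0.33).

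*Dclk1*, a microtubule-associated kinase, and *Mab21l1*, a developmental gene of the eye, lie 243445 bp apart on the plus strand of chromosome 3. *Dclk1* stood at 1729.6 and 1669 in the control libraries, against 682 and 717 with EZHIP, 336 and 347 with K27M and 180.2 and 224 without EED. EED-null libraries were lowest and called lower than EZHIP cells (-1.79, adjusted p = 0.000115), and the call of K27M below EZHIP cells (-1.03) was lost without EZHIP replicate 2 (-0.996). *Mab21l1* had 762 and 710.1 in the control libraries, against 241 and 292 with EZHIP, 117 and 95.3 with K27M and 149.7 and 137 without EED. K27M libraries were lowest and called lower than EZHIP cells (-1.32, adjusted p = 0.000338), and EED-null cells were called lower than EZHIP cells without EZHIP replicate 1 (-1.02).

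*Ppfia2*, which encodes a liprin of synaptic scaffolds, was low in every line, with 295 and 283 in the control libraries, against 22.5 and 33.1 with EZHIP, 33.4 and 27.97 with K27M and 19.4 and 22.3 without EED. The lines lay near each other and no pair was called different.

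*Trhde*, an enzyme that degrades thyrotropin-releasing hormone, had values of 366 and 395 in control cells, 97.1 and 82.1 under EZHIP, 4.64 and 6.12 under K27M and 24.95 and 21.3 after loss of EED. K27M libraries were lowest, EED-null libraries next and EZHIP libraries highest among the lines, without overlap. K27M was lower than EZHIP (log2 difference -3.83, 95% interval -4.24 to -3.43, adjusted p = 6.89e-06) and than EED-null cells (-1.93, adjusted p = 0.000101), and EED-null was lower than EZHIP cells (-1.91, adjusted p = 0.000199).

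The largest difference from control in the set was that of *Zcchc5*, now named Rtl3, a gene derived from a retrotransposon on the minus strand of chromosome X (mm9 chrX:104032421-104035983). Its values were 976 and 951 in control cells, 204 and 204 under EZHIP, 27.8 and 39.3 under K27M and 2.77 and 0 after loss of EED. Control libraries were highest, EZHIP libraries kept 21.2% of the control mean, K27M libraries far less, and the EED-null libraries had 2 reads and 0. From the reads, control exceeded EED-null cells by a ratio of 843, with an exact 95% counting interval from 233 to 6964. On the log2(value + 1) scale EED-null was lower than EZHIP cells (log2 difference -6.72, 95% interval -8.14 to -5.30, adjusted p = 0.000199), K27M was lower than EZHIP cells (-2.59, adjusted p = 0.00657), and K27M was higher than EED-null cells (4.13, adjusted p = 0.000892). These sizes depend on the pseudocount, and with 0.1 in its place the second call was lost (-2.62).

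*Dnahc8* (now Dnah8), an axonemal dynein, and *Filip1*, a filamin-interacting protein, had no reads in EZHIP cells. *Dnahc8* had values of 39.01 and 30.3 in control cells, 0 and 0 under EZHIP, 12.1 and 15.7 under K27M and 2.77 and 2.91 after loss of EED. K27M cells kept the most and EZHIP cells none, so the control mean was at least 9.94-fold higher than that of EZHIP cells, with the floor of 3 reads per library. *Filip1* had 26.7 and 34.7 in the control libraries, against 0 and 0 with EZHIP, 15.8 and 7.87 with K27M and 2.77 and 0.969 without EED. Its control mean was at least 8.81-fold higher than that of EZHIP cells, and with 3 reads in the EED-null libraries together, the ratio of control to EED-null cells was 18.3 (exact 95% counting interval 6.03 to 90.9). With both genes at their bounds, the median difference of the 80 genes in EZHIP cells is still -1.75. limma called K27M higher than EZHIP cells for *Dnahc8* (3.89, adjusted p = 7.95e-06) and *Filip1* (3.61, adjusted p = 0.000293), sizes that depend on the pseudocount. EED-null was called higher than EZHIP cells for both genes, at a few reads against none. For *Filip1* that call (1.45) was lost without EED-null replicate 1 (0.98), EZHIP replicate 1 (1.45) or EZHIP replicate 2 (1.45), and for both genes it was lost with a pseudocount of 5 (0.65 and 0.45).

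*Kctd12*, an auxiliary subunit of GABA-B receptors, was strongly expressed, with values of 3653 and 3658 in control cells, 312 and 277 under EZHIP, 617 and 534 under K27M and 1492 and 1514 after loss of EED. Among the lines EZHIP libraries were lowest and EED-null libraries highest, without overlap. EED-null exceeded EZHIP cells (log2 difference 2.35, 95% interval 2.06 to 2.64, adjusted p = 4.45e-05), and K27M was lower than EED-null cells (-1.39, adjusted p = 9.91e-05). The difference of K27M minus EZHIP, 0.96, was called without EZHIP replicate 1 (1.05) or K27M replicate 2 (1.06). *Clec11a*, a secreted growth factor of bone marrow, had 172 and 146 in the control libraries, against 7.101 and 18.2 with EZHIP, 38.03 and 37.6 with K27M and 9.704 and 20.3 without EED. K27M libraries lay above those of both other lines, which overlapped. K27M was called higher than EZHIP (1.64, adjusted p = 0.019) and than EED-null cells (1.36, adjusted p = 0.0384). The former call was lost without EZHIP replicate 1 (1.01), K27M replicate 1 (1.63) or K27M replicate 2 (1.64). The latter was lost without control replicate 1 or 2 (1.36 in each), EED-null replicate 1 (0.86), K27M replicate 1 (1.35) or K27M replicate 2 (1.37).

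How far apart the lines lay was tested in 3 comparisons over all 875 listed genes with limma, and a gene was called at an adjusted p under 0.05 and at least 2-fold. These p-values measure only the spread between these libraries, which may be technical, and the intervals given with them are not adjusted for the number of genes. Between EED-null and EZHIP cells, 27 of the 80 genes (33.8%) were called, beside 44.9% of all listed genes. Of these, 9 were higher in EED-null cells, beside 25.1% of the listed genes, and 18 were lower, beside 19.8%. Between K27M and EZHIP cells, 30 of the 80 (37.5%) were called, beside 58.7% of the listed genes. In that comparison 11 were higher in K27M cells, beside 32.6%, and 19 were lower, beside 26.2%. After rescaling, the same comparison gave 6 higher and 24 lower, and without K27M replicate 1 it gave 6 higher and 19 lower. Between K27M and EED-null cells, 34 of the 80 (42.5%) were called, beside 54.4% of the listed genes. Here 21 were higher in K27M cells, beside 27.8%, and 13 were lower, beside 26.6%. The rule put all 3 lines of each gene on the same side of control, which bears on how often they differ, and no test compares these shares with those of the other listed genes.

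The median difference between lines over the 80 genes was -0.18 for EED-null minus EZHIP, -0.28 for K27M minus EZHIP and -0.04 for K27M minus EED-null. Over all listed genes the same medians were 0.15, 0.13 and 0.01. Rescaling moved the listed median of K27M minus EZHIP by -0.13. The comparisons share libraries with one another, so their counts are not independent. Of the 91 calls in the 3 comparisons, 66 were kept whichever library was left out and 25 were lost in at least 1 such fit.

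Other settings moved calls as well, some by size and some by adjusted p. With a pseudocount of 5 in place of 1, the calls between K27M and EZHIP cells were lost for *Entpd2* (0.95), *Fam55d* (0.87), *Scara5* (0.89), *Sema3g* and *Trpv2* (0.92), those between K27M and EED-null cells for *Calml4*, *Ebf1* (-0.94) and *Sema3g*, and those between EED-null and EZHIP cells for genes that included *Dnahc8*, *Filip1* and *Pcdhgb5* (0.95). With 0.1 the losses included *Aoc3* for K27M minus EZHIP (-2.41) and K27M minus EED-null (4.16), *Clec11a* for K27M minus EED-null (1.42), and *Trpv2* (1.26) and *Zcchc5* for K27M minus EZHIP. Rescaling removed the calls of K27M above EZHIP cells for *Entpd2* (0.92), *Fam55d* (0.985), *Scara5* (0.88), *Sema3g* and *Trpv2* (1.04), and of K27M above EED-null cells for *Clec11a* (1.29). It added calls of K27M below EZHIP cells for *Aspn*, *C1qtnf5* (-1.04), *Epha3* (-1.08), *Jag1* and *Sc5d*, of K27M below EED-null cells for *A730069N07Rik*, *Gpc6* and *Nid1* (-1.01), and of EED-null below EZHIP cells for *Heyl* (-1.40) and *Ltbp2* (-1.05). *Heyl* was also called lower in EED-null than in EZHIP cells with only genes averaging 5 or more, or with a trend on expression (-1.34 in each), and the trend added a call of K27M above EED-null cells for *Ptgir* (1.93).

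**Figure D3:**
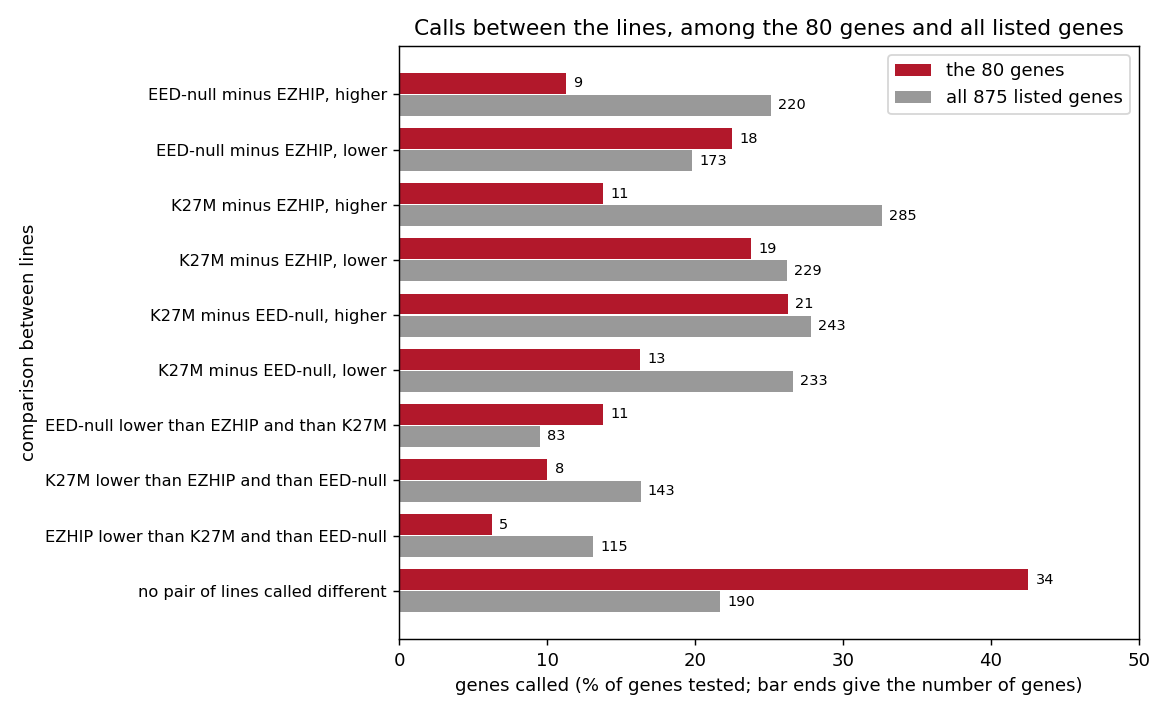
Share of genes called between lines (horizontal axis, % of genes tested) for the 80 genes and for all 875 listed genes, with the number of genes at each bar's end and a row for each comparison or pattern. For all 3 comparisons the bar of the 80 genes is shorter than that of the listed genes in the higher direction, and for genes with no pair called it is longer, 42.5% beside 21.7%.

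EED-null cells were called lower than both other lines for 11 genes, beside 9.49% of the listed genes. These were *Aoc3*, *Aspn*, *Calml4*, *Cspg4*, *Epha7*, *Esr2*, *Jag1*, *Mtap2*, *Prelp*, *Susd2* and *Zcchc5*. *Calml4*, a calmodulin-like protein, had 81.9 and 87.8 in the control libraries, against 29.6 and 25.1 with EZHIP, 17.6 and 14.9 with K27M and 5.55 and 6.78 without EED. It stepped down through the lines without overlap, and EED-null was lower than EZHIP cells (-1.98, adjusted p = 0.00014). Its call of K27M above EED-null cells (1.27) was lost with a pseudocount of 5 (0.93). *Susd2*, a membrane protein with sushi domains, had 242 and 290.1 in the control libraries, against 71.01 and 80.9 with EZHIP, 102 and 134 with K27M and 38.8 and 30.04 without EED. Its K27M libraries were highest and its EED-null libraries lowest among the lines. The call of EED-null below EZHIP cells (-1.13) was lost without EED-null replicate 2 (-0.95), while K27M exceeded EED-null cells (1.74, adjusted p = 0.000361).

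K27M cells were called lower than both other lines for 8 genes, beside 16.3% of the listed genes, among them *Enpep*, *Fat4*, *Gpr30*, *Gucy1a2*, *Trhde* and *Unc5c*. EZHIP cells were called lower than both other lines for 5 genes, beside 13.1% of the listed genes: *Cthrc1*, *Dnahc8*, *Filip1*, *Ptprz1* and *Rspo3*. All 3 pairs of lines were called different for 9 genes, beside 16.7% of the listed genes. Among these were *Aoc3*, *Cthrc1*, *Dnahc8*, *Filip1*, *Prelp*, *Ptprz1*, *Trhde* and *Zcchc5*. For *Dnahc8* and *Filip1*, EED-null above EZHIP rests on a few reads against none, and both calls were lost with a pseudocount of 5.

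**Figure D4:**
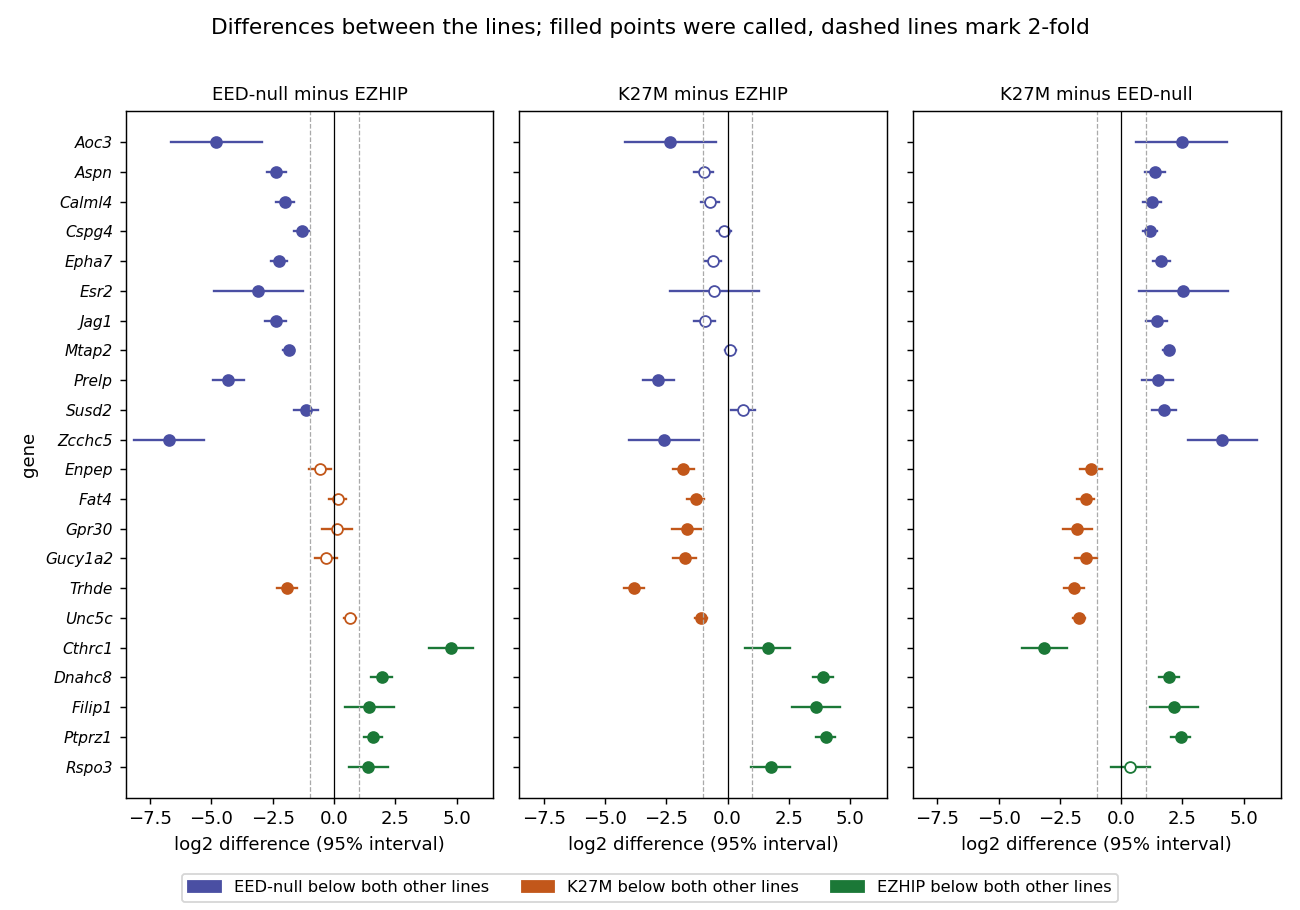
Differences between lines on the log2 scale (horizontal axes, 1 panel per comparison) with 95% intervals for 22 of the 24 genes in which 1 line was called below both others, coloured by that line. Filled points were called and dashed lines mark 2-fold, and the points of Zcchc5 and Prelp lie far to the left and those of Cthrc1 far to the right for EED-null minus EZHIP.

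Further genes were called in 1 or 2 comparisons. *Antxr1*, a cell surface receptor that binds collagen and anthrax toxin, had 2207 and 2188 in the control libraries, against 695 and 609.9 with EZHIP, 435 and 489 with K27M and 1023 and 978 without EED. K27M libraries were lowest and EED-null libraries highest among the lines, and K27M was lower than EED-null cells (-1.12, adjusted p = 0.000239). *Cilp2*, a cartilage matrix protein, differed from control by -2.58 under EZHIP, -1.81 under K27M and -1.31 after loss of EED, and EED-null was higher than EZHIP cells (1.26, adjusted p = 0.00048).

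Some other calls were lost when a single library was left out. *Scara5*, a ferritin receptor, had 178 and 162 in the control libraries, against 16.6 and 27.4 with EZHIP, 47.3 and 41.1 with K27M and 8.32 and 16.5 without EED, with K27M highest among the lines and above EED-null cells (1.82, adjusted p = 0.0036). Its call above EZHIP cells (1.01) was lost without control replicate 1 or 2 (1.01 in each), EZHIP replicate 1 (0.67), K27M replicate 1 (0.91) or K27M replicate 2 (1.11). EED-null was called lower than EZHIP cells for *Scara5* without EED-null replicate 2 (-1.26) or EZHIP replicate 1 (-1.15). *Entpd2*, an enzyme that degrades extracellular ATP, was higher in K27M than in EED-null cells (1.502, adjusted p = 0.00821). Its call above EZHIP cells (1.06) was lost without EZHIP replicate 2 (0.67) or K27M replicate 2 (0.73). *Fam55d*, now named Nxpe4, was called higher in K27M than in EZHIP cells (1.12), though not without EZHIP replicate 2 (0.76) or K27M replicate 1 (0.81).

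*Trpv2*, a cation channel, was called higher in K27M than in EZHIP cells (1.18) and than in EED-null cells (1.55). The former call was lost when any library other than the EED-null libraries and EZHIP replicate 2 was left out (from 0.87 without EZHIP replicate 1 to 1.39 without K27M replicate 1). The values between were 0.96 without K27M replicate 2 and 1.18 without control replicate 1 or 2, and the latter call was lost without EED-null replicate 1 (0.96) or K27M replicate 2 (1.33). *Stard8*, a gene on chromosome X, gained calls when a library was left out. EED-null was then higher than EZHIP cells without EED-null replicate 1 (1.01) or EZHIP replicate 2 (1.07), and K27M higher than EZHIP cells without K27M replicate 2 (1.04). *March1*, now named Marchf1, was called higher in K27M than in EZHIP cells without EZHIP replicate 2 (1.32), and *C1qtnf5* lower in K27M than in EZHIP cells without EZHIP replicate 2 (-1.21).

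No pair of lines was called different for 34 genes (42.5%), beside 21.7% of the listed genes. A missed call does not show that lines are alike, so the intervals of the 5 such genes with the closest lines and a control mean of at least 100 are given. Over all 80 genes the range of the 3 differences from control had a median of 1.25, from 0.05 to 6.42, and was under 0.5 for 12 genes. *Chpf*, which helps build chondroitin sulfate chains, had values of 982 and 889 in control cells, 495 and 429 under EZHIP, 409.9 and 479 under K27M and 466 and 446 after loss of EED. The lines overlapped in every pair. Their differences were -0.02 (95% interval -0.34 to 0.31) for EED-null minus EZHIP, -0.06 (95% interval -0.38 to 0.27) for K27M minus EZHIP and -0.04 (95% interval -0.37 to 0.29) for K27M minus EED-null.

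For *Ebf3* the differences were -0.09 (95% interval -0.33 to 0.15), -0.17 (95% interval -0.42 to 0.07) and -0.08 (95% interval -0.33 to 0.16) in the same order of comparisons. *Nfia* gave 0.15 (95% interval -0.10 to 0.39), 0.18 (95% interval -0.06 to 0.42) and 0.03 (95% interval -0.21 to 0.27). The intervals of *Chpf*, *Ebf3* and *Nfia* all lie inside 2-fold. *Vill*, a villin-like actin-binding protein, had values of 474 and 464 in control cells, 220.1 and 184 under EZHIP, 235 and 207 under K27M and 205 and 252 after loss of EED, and its lines overlapped in every pair. Its differences were 0.18 (95% interval -0.20 to 0.55), 0.13 (95% interval -0.24 to 0.51) and -0.04 (95% interval -0.42 to 0.33).

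*A430107O13Rik*, now named Cped1, encodes a protein with a cadherin-like domain and had values of 271 and 259 in control cells, 94.7 and 90.1 under EZHIP, 76.98 and 77.8 under K27M and 85.9 and 77.5 after loss of EED. EZHIP libraries lay above the other 4, and the differences were -0.18 (95% interval -0.43 to 0.07) for EED-null minus EZHIP, -0.25 (95% interval -0.502 to -0.001) for K27M minus EZHIP and -0.08 (95% interval -0.33 to 0.17) for K27M minus EED-null. The other unnamed gene model in the set, of 39 listed, was *A730069N07Rik*, which now belongs to Dlc1. limma called 15 of the 39 higher and 23 lower in EZHIP, 11 higher and 4 lower in K27M, and 11 higher against 12 lower in EED-null cells, beside 56%, 41.4% and 39.9% higher and 43.1%, 20% and 25.1% lower over all listed genes. *A730069N07Rik* differed from control by -1.92 under EZHIP, -2.38 under K27M and -1.46 after loss of EED, on reads that were fractional in every library. Its K27M libraries were called lower than its EED-null libraries without EED-null replicate 2 (-1.07) or K27M replicate 2 (-1.25), or after rescaling (-1.01).

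Other genes without a called pair included *Plod2*, a lysyl hydroxylase that prepares collagen for cross-linking, with 1959.7 and 1917 in the control libraries, against 941 and 961 with EZHIP, 966 and 813 with K27M and 821 and 715 without EED. *Fam63b*, *Pag1*, *Rbms3*, *Igsf10*, *Fam110b*, *Siae*, *Ggt7*, *Ehd3*, *Fam46a*, *Ripk3* and *Crispld2* were also without a called pair. *Fam110b* was the lowest of these relative to control, with -2.61 under EZHIP, -3.07 under K27M and -2.26 after loss of EED.

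The 3 genes just inside the threshold of -1 were *Gpc6*, *Crispld2* and *Chpf*, with -1.01, -1.02 and -1.02 as the smallest of their 3 differences. *Gpc6*, a glypican, had 611 and 661 in the control libraries, against 245 and 229 with EZHIP, 159 and 168 with K27M and 327 and 303 without EED, and it was limited by EED-null cells. K27M was called lower than EED-null cells for *Gpc6* after rescaling (-1.01). Just outside were *Agtr2*, *Aplp2* and *Agphd1*. *Agtr2*, an angiotensin receptor, missed through K27M cells at -0.999. *Aplp2* and *Agphd1* missed through EED-null cells at -0.96 and -0.95. Leaving out a library moved genes near the threshold. Without control replicate 1 the rule no longer chose *Chpf*, *Cthrc1*, *Lcat*, *Pcdhgb5* and *Trpv2*, and without EED-null replicate 1 it lost genes that included *Cthrc1*, *Ggt7*, *Stard8* and *Vill*. The rule lost *Ogn* without EZHIP replicate 1, and *Ltbp2* and *Susd2*, among others, without K27M replicate 1. *Filip1*, among others, was lost without K27M replicate 2, and *Epha4*, among others, without EED-null replicate 2.

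Several pathway lists had no gene in the set. They were Hedgehog signalling (4 listed), chemokines and cytokines (10), redox and detoxification (8), imprinted genes (7), the interferon response (31), proliferation (3), contractile genes (1) and Polycomb subunits (1). In EZHIP, K27M and EED-null cells in turn, limma called 1, 17 and 1 of the interferon list higher and 30, 2 and 29 lower, beside 56%, 41.4% and 39.9% higher and 43.1%, 20% and 25.1% lower over all listed genes. Of the imprinted list it called 2, 2 and 1 higher and 5, 0 and 3 lower, and of the redox list 4, 2 and 0 higher and 4, 2 and 2 lower. The Hedgehog list had 3, 1 and 1 higher and 1, 0 and 1 lower, and the cytokine list 9, 5 and 6 higher and 1, 0 and 0 lower. No proliferation or contractile gene was called lower in any line, while 3, 2 and 1 proliferation genes and 1, 1 and 1 contractile gene were called higher.

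Cell type markers could be looked up only where the table lists them. Of the fibroblast markers it holds *Col3a1* and *Dcn*. *Col3a1* stood at 17665 and 17245 in the control libraries, against 6797 and 6268 with EZHIP, 2206 and 2517 with K27M and 5733 and 5641 without EED, so this fibroblast collagen was abundant in every library though lower in the lines, and it passed the threshold but was set aside by its symbol. The fibroblast identity list had 4 listed genes, *Col3a1*, *Dcn*, *Fap* and *Fbn1*. limma called 4 of them lower in EZHIP, 1 lower and 1 higher in K27M, and 4 lower in EED-null cells, beside 56%, 41.4% and 39.9% higher and 43.1%, 20% and 25.1% lower over all listed genes. The endothelial marker *Kdr* had 9.24 and 9.596 in the control libraries, against 52.1 and 51.3 with EZHIP, 157 and 222 with K27M and 11.1 and 10.7 without EED. The epithelial marker *Epcam* had 6.16 and 3.69 in the control libraries, against 21.3 and 10.3 with EZHIP, 68.6 and 81.3 with K27M and 38.8 and 20.3 without EED. *Sox9*, listed for cartilage and bone, had 18.5 and 28.8 in the control libraries, against 95.9 and 100.3 with EZHIP, 26.9 and 25.4 with K27M and 83.2 and 71.7 without EED. Each of these 3 was higher in EZHIP cells than in control, and *Mtap2* was the only listed neural marker. No marker of blood, skeletal muscle, smooth muscle or adipose cells was listed. The part of other cell types in the differences was not tested.

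By position, 77 of the 80 genes have a single locus in the mm9 annotation, all but *Ebf1*, *Pcdhgb5* and *A730069N07Rik*, and 76 are annotated as protein coding. Their loci have a median length of 56841 bp, against 31061 bp for the listed genes and 33692.5 bp for those lower in EZHIP cells. Chromosome 9 holds 15 of them among 58 listed genes (25.9%), and chromosome 3 holds 8 among 34 (23.5%). On chromosome 5 it was 1 of 67 (1.49%), and on chromosome 19 none of 29. Among the 15 genes on chromosome 9 are *C1qtnf5*, *Calml4*, *Cspg4*, *Fam46a*, *Fam55d*, *Fam63b*, *Filip1*, *Gucy1a2*, *Plod2*, *Rbms3*, *Sc5d*, *Sema3b*, *Siae* and *Vill*. The median differences of all 15 were -1.28 under EZHIP, -1.56 under K27M and -1.81 after loss of EED.

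Listed genes of chromosome 9 as a whole were lower as well, with medians of -1.12, -0.90 and -0.73, and 42 of the 58 had a lower mean in EZHIP than in control cells, beside 380 of all 875. Chromosome 16 was the only other with medians below 0 in all 3 lines (-1.131, -0.296 and -0.375), and under EZHIP the median was also below 0 on chromosomes 3, 8, 10, 11 and X. The cause of this pattern was not tested. Only 3 pairs of the 77 genes lie within a megabase of each other: *Aspn* and *Ogn*, *Dclk1* and *Mab21l1*, and *A430107O13Rik* and *Ptprz1*, which are 619097 bp apart on chromosome 6.

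**Figure D5:**
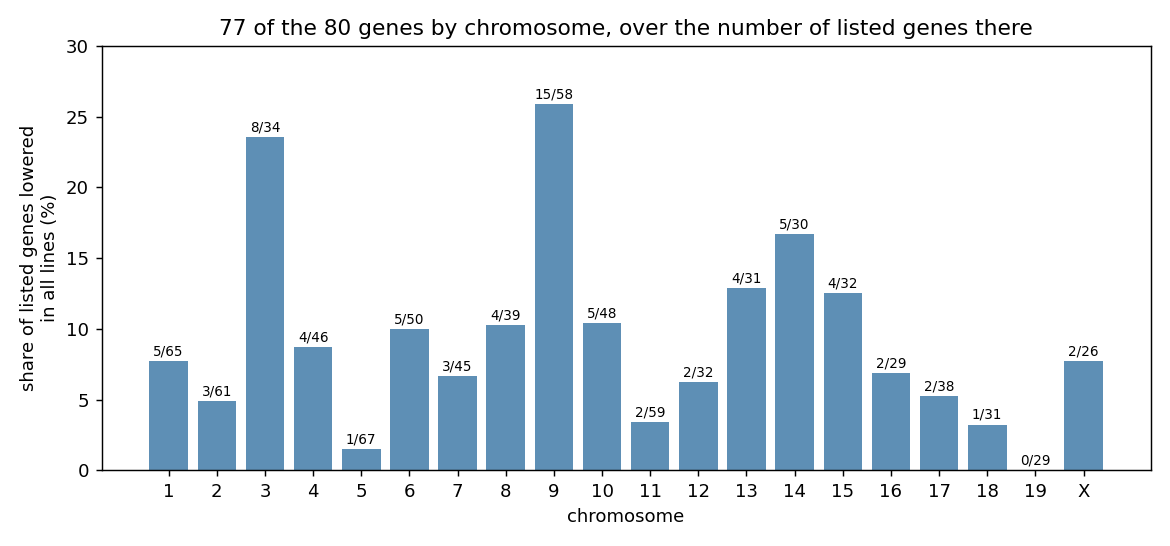
Share of listed genes on each chromosome (horizontal axis) that were lowered in all lines (vertical axis, %), with the number of such genes over the number listed above each bar. Chromosomes 9 and 3 have the tallest bars, at 25.9% and 23.5%.

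Promoter sequence was available for 57 of the 80 genes, and 23, among them *Rspo2*, *Hey1* and *Heyl*, had no window. With fewer than 80% of the genes covered, base composition and motifs of the set were not compared with those of other genes.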

How the data were processed

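The data were 8 RNA libraries of mouse embryonic fibroblasts, 2 each of control, EZHIP, K27M and EED-null cells, grouped by the sample labels. The deposited signal is the reads per gene that the authors estimated with RSEM (1.2.4 in the submitters' processing notes, mm9), divided by a size factor per library. The authors tested genes with EBSeq and kept those at least 2-fold different between EZHIP and control cells. Whether the spiked-in RNA entered the size factors is not stated, so a difference in total RNA per cell may not show in the values. Reads were taken as multiples of the smallest step between values, and 3 reads per library was the floor.

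Python 3.11.15 gave group means and medians (pandas 2.3.3, numpy 2.4.6), exact 95% counting intervals (scipy 1.17.1) and plots (matplotlib 3.10.9). R 4.3.3 ran limma 3.58.1 on log2(value + 1) over all genes, with each group's mean, a spread shared by all 8 libraries and Benjamini-Hochberg adjustment over 875 genes. Differences from control are of log2(group mean + 1), and differences between lines, and list medians, are limma's. The fit was tested on simulated data.

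Named genes were the 10 members lowest on average with a control mean of at least 20, the 3 largest called differences in each direction between lines with a mean of at least 20 in the higher group, up to 4 members per gene list, the 3 genes on either side of the threshold, the 5 members with the closest lines, and genes the paper names. Other genes were named after their values were seen, among them *Ptn*, *Nov*, *Ogn*, *Aspn*, *Fat4*, *Nid1*, *Dnahc8* and every further member, as were the lists of small leucine-rich proteoglycans, sterol genes and pleiotrophin receptors. The members and lists were chosen with earlier results of these data known. Some genes, and the lists of lipid and sterol genes, are not reported here.

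Alternatives were pseudocounts of 0.1 and 5, leaving out each library, rescaled libraries, only genes averaging 5 or more, means of log2 values, only the 2 groups compared, a replicate block, a trend on expression, the adjusted p alone, the coding strand alone for motifs and, added after seeing the data, no symbol filter. Loci came from GENCODE and promoters from RefSeq GRCm38.p6.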

Additional observations from a re-analysis of the deposited data

Results flagged for a closer look

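The lines differed from one another for some genes of the set, by direct tests of the difference between groups. Of the 80 genes, 27 were called different between EED-null and EZHIP cells, 30 between K27M and EZHIP cells, and 34 between K27M and EED-null cells. These were 33.8%, 37.5% and 42.5% of the 80 genes, each below the corresponding share of all listed genes (44.9%, 58.7% and 54.4%). The rule put the lines of each gene on the same side of control, and no test compared these shares.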

How the results depend on the processing

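After rescaling the libraries, 133 genes met the rule, 80 of them shared, and without the symbol filter, an alternative added after seeing the data, 99 did. Other settings gave 76 to 81 genes, and leaving out a library 77 to 79. Genes called higher in EED-null than in EZHIP cells numbered 5 with a pseudocount of 5. Those higher in K27M than in EZHIP cells numbered 6 with a pseudocount of 5, 6 after rescaling, and 6 to 11 with a library left out. By the adjusted p alone, 45 genes (18 higher) differed between EED-null and EZHIP, 52 (17 higher, 35 lower) between K27M and EZHIP, and 55 (27 lower) between K27M and EED-null cells, since more genes pass without the 2-fold limit. Median differences from control were -2.07, -2.44 and -2.43 after rescaling in EZHIP, K27M and EED-null cells. In K27M cells they were -2.04 with a pseudocount of 0.1 and -1.90 with 5, and in EED-null cells -2.05 and -1.93. The cause was not tested. With a replicate block, which pairs libraries that share only a number, the counts were again 27, 30 and 34. Over the 3 comparisons and all 80 genes, 3840 values were recomputed for 240 differences. The direction and side of the threshold were kept in 3651, 107 gained a call, 82 lost it and none changed sign while called. On the coding strand alone, 19.7% of all RefSeq windows hold CCAAT, against 34.5% on both. Genes with few reads, such as *Ptgir* and *Esr2*, are limited by depth.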

Other observations

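The 19 genes set aside by their symbols met the same threshold. They were *Abca8b*, *Adam23*, *Adamts1*, *Adamts12*, *Adamtsl1*, *Col11a1*, *Col19a1*, *Col3a1*, *Col6a4*, *Hoxc8*, *Itga1*, *Itga11*, *Kcnc2*, *Lama2*, *Lama3*, *Lama4*, *Scn7a*, *Serpine2* and *Slc6a2*. Among them are laminin chains and collagens of the extracellular matrix, integrin chains and ion channels. *Adam23*, a surface protein that binds integrins, had 446 and 477 in the control libraries, against 27.2 and 23.9 with EZHIP, 42.7 and 43.7 with K27M and 30.5 and 27.1 without EED. Control libraries were far above all others, and its differences from control were -4.12 under EZHIP, -3.39 under K27M and -3.95 after loss of EED. *Col11a1*, a fibrillar collagen of cartilage, had 2078 and 2025 in the control libraries, against 861 and 838 with EZHIP, 185 and 191 with K27M and 591 and 595 without EED, with K27M libraries lowest.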
